A study of Mus musculus with 7 samples.

Results

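The interferon-high heart neutrophils were 155 cells of a hashed pool of CD11b+ leukocytes from infarcted mouse hearts. They were chosen from 1550 cells that carried the surface antibody to Ly6G, a neutrophil protein, at 200 UMIs or more. A UMI (unique molecular identifier) stands for 1 captured molecule. A cell was chosen when the summed UMIs of 12 interferon-induced genes (Ifit1, Ifit2, Ifit3, Isg15, Rsad2, Cmpk2, Oasl1, Oasl2, Usp18, Irf7, Ifi44 and Mx1, below the rule genes) made up at least 0.5% of its gene UMIs. The other 1395 Ly6G-antibody-positive cells served as the comparison within each day. These cells were drawn from 4416 barcodes with 1 clear hashtag and at most 10% mitochondrial UMIs, of 5862 in the pool and 22630 in the series.

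All mice of the pool were male C57BL6/J and had a permanent ligation of the left coronary artery. No uninjured or sham heart was in the pool. Cells that an antibody to CD45.2 injected into the circulation had not stained were sorted, so that leukocytes inside the vessels were left out. Day 1 (hashtag 1, 5 mice), day 3 (hashtag 2, 5 mice) and day 5 (hashtag 3, 3 mice) were each 1 pool of mice, stained with 1 hashtag, and all were run in 1 library (10x Genomics 3' version 3) with 10 surface antibodies. Each day therefore had no replicate of its own, and both classes of cells of a day came from the same mice. Of the barcodes within the gene and mitochondrial limits, 8.67% (419 of 4835) had no clear single hashtag and were left out. Doublets formed within a hashtag were not removed. Median gene UMIs per cell in the interferon-high cells were 4812 against 4590 on day 1, 4035 against 4177.5 on day 3 and 4059 against 5112 on day 5, so that they were slightly deeper than the others on day 1 and shallower on days 3 and 5.

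Type I interferons bind the receptor of Ifnar1 and Ifnar2, and interferon gamma that of Ifngr1 and Ifngr2. Both receptors act through Janus kinases and STAT proteins. Stat2 and Irf9 are parts of the factor ISGF3, which binds the interferon-stimulated response element (ISRE) and switches on antiviral genes. Neutrophils reach the infarct early, where they clear debris and release proteases and cytokines.

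The 250 bases before the start of Ifit3, Isg15 and Rsad2, the defining genes of these cells, are shown because each holds the repeat at the core of an ISRE. They are RefSeq sequences of build GRCm38.p6, written 5′ to 3′ on the strand of the gene. The motif searched was GAAA, any 2 bases, then GAAA, on either strand, and capitals mark each match. The Ifit3 sequence lies at chr19:34583279-34583528 (plus strand), that of Isg15 at chr4:156200819-156201068 (minus strand) and that of Rsad2 at chr12:26456453-26456702 (minus strand).

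Ifit3: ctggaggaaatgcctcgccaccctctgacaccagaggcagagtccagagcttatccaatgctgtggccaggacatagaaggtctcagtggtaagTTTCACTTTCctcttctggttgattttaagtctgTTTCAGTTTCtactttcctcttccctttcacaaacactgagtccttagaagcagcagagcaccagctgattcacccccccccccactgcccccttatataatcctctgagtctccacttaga
Isg15: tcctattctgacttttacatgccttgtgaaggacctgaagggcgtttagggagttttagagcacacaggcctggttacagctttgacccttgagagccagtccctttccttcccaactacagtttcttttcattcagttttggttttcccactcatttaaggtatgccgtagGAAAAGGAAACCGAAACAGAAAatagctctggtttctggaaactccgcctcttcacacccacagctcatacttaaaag
Rsad2: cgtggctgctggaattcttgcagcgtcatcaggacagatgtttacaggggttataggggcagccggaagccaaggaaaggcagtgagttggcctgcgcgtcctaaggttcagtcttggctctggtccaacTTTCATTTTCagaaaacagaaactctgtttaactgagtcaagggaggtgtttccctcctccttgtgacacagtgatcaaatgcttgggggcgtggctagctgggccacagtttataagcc

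In Isg15, 3 matches overlapped on the strand of the gene, beginning 78, 72 and 66 bases before the start. The 2 matches of Ifit3, 156 and 122 bases before the start, and the single match of Rsad2, 120 bases before it, were on the opposite strand. Over windows from 250 bases before to 50 bases after the start, the motif was found in 4 of the 10 rule genes with an entry (the fourth was Ifit1) and in 3.99% of all 27025 genes with an entry. Several rule genes are also close neighbours in the genome. Ifit2 (chr19:34550694-34576419), Ifit3 (chr19:34583531-34588731) and Ifit1 (chr19:34640871-34650009) are protein-coding genes of 1 cluster on chromosome 19. Ifit1bl1 and Ifit3b, which are not rule genes, lie between Ifit3 and Ifit1. Rsad2 (chr12:26442746-26456452) and Cmpk2 (chr12:26469204-26479837) lie beside each other on opposite strands, as do Oasl2 (chr5:114896936-114912234) and Oasl1 (chr5:114923240-114937915) on the same strand.

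Isg15 and Rsad2 supplied most of the interferon score. Because these genes chose the cells, the following levels are a description. Isg15, a ubiquitin-like protein attached to other proteins, had at least 1 UMI in 98.1% of the interferon-high cells and in 40.6% of the others, and supplied 34.2% of all rule UMIs. In the summed interferon-high cells its CPM, the UMIs of the gene scaled to the total of gene UMIs in the sum, was 6358 on day 1, 4352 on day 3 and 2511 on day 5, against 525, 210 and 116 in the others. Rsad2, which encodes the antiviral enzyme viperin, was at 3369, 3374 and 2448 CPM on days 1, 3 and 5, against 107, 68.1 and 43.4. Rsad2 supplied 23.1% of the rule UMIs. The day 5 levels depend on cells outside the transcript gate described below, of which 1 gave 45.7% of the UMIs of that sum. Inside the gate Isg15 was at 6329, 4543 and 4527 CPM and Rsad2 at 3188, 3369 and 4725. Isg15 was thus highest on day 1 in both sets of cells, while the day 5 level of Rsad2 was the lowest of the 3 over all cells and the highest inside the gate.

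The IFIT proteins bind viral RNA. Ifit1 stood at 1865, 1531 and 1601 CPM on days 1, 3 and 5, against 44.1, 21.6 and 23.2 in the others. Ifit3 was at 794, 891 and 954 CPM, against 22, 13.2 and 11.2. Inside the gate their day 5 levels were 2462 and 1503 CPM. Both were low in the other cells on each of the 3 days, and Ifit3 had a UMI in 64.5% of the interferon-high cells and 6.02% of the others. Oasl2, an oligoadenylate synthetase-like protein, and Irf7, a transcription factor that amplifies interferon production, were detected in 94.8% and 85.2% of the interferon-high cells. They were also detected in 39.1% and 28.2% of the others, the highest shares after Isg15. A pair of rule genes played almost no part. Ifi44 had 0 UMIs in the interferon-high cells. Mx1 was detected in 8 of them, with 1 UMI on day 1.

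The score varied widely among the 155 cells. They held 6 to 440 rule UMIs (median 56) and a median of 7 of the 12 rule genes, and 134 of the 155 had at least 5. The median score was 1.24% of gene UMIs on day 1, 1.19% on day 3 and 0.807% on day 5, against 0.0648%, 0.0237% and 0.0101% in the other cells. At or above 1% there were 81 cells, and 21 at or above 3%. No gap separated the classes at the threshold. Just outside it, at 0.4% to 0.5%, lay 34 cells with a median of 21 rule UMIs, and just inside it, at 0.5% to 0.6%, lay 23 cells with a median of 20. The class is therefore the upper range of a continuous score.

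**Figure D1:**
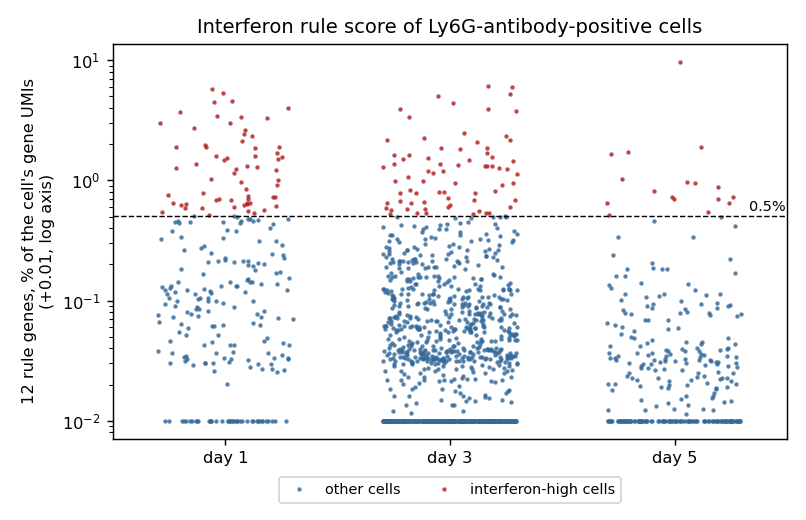
Share of the 12 rule genes in each Ly6G-antibody-positive cell (vertical log axis, percent of gene UMIs plus 0.01) by day after infarction, 1 point per cell, with horizontal jitter that carries no value. Red cells lie at or above the 0.5% line and blue cells below it, and 34 cells at 0.4% to 0.5% adjoin 23 at 0.5% to 0.6%.

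Choosing cells by a count inflates that count, so every UMI was also put at random into 1 of 2 parts, cells were chosen on 1 part, and the rule genes were read in the other. The summed rule genes were then 13.3-fold higher in the chosen cells on day 1, 24.7-fold on day 3 and 27.7-fold on day 5. With all UMIs the folds were 14.0, 25.0 and 27.6, and inside the transcript gate described below 12.4, 21.1 and 50.5. Of the cells chosen on 1 part, 60 of 66, 68 of 72 and 16 of 17 also met the rule on all UMIs.

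Most of the cells carried a neutrophil transcriptome, and the label was met best on day 1. Csf3r, the receptor of the neutrophil growth factor G-CSF, and S100a8, a calcium-binding alarmin, were each detected in 96.8% of the interferon-high cells. Detection alone does not separate the cell types. Csf3r and S100a8 were found in 92.0% and 93.1% of the others, and the macrophage gene Apoe in 94.2% of the interferon-high cells. Of further neutrophil genes, Retnlg was detected in 37.4% and G0s2 in 69.7% of the interferon-high cells. A transcript gate was set for a check: 9 neutrophil genes at 0.5% or more of UMIs and above 8 macrophage genes. The neutrophil genes were S100a8, S100a9, Csf3r, Cxcr2, Retnlg, Il1r2, Mmp9, Hdc and G0s2. The macrophage genes were C1qa, C1qb, C1qc, Adgre1, Csf1r, Ms4a7, Apoe and Mrc1. The gate was passed by 96.9%, 91.8% and 88.2% of the interferon-high cells on days 1, 3 and 5 (145 of 155 in all), and by 95.8%, 85.7% and 61.3% of the others. Ly6g mRNA itself had a UMI in 11% of the interferon-high cells and 4.30% of the others.

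Among the interferon-high cells those outside the gate were few, but on days 3 and 5 they were deep. The cells outside the gate supplied 18.9%, 52.8% and 80.4% of the UMIs of the other cells on days 1, 3 and 5, and 1.17%, 20.5% and 62.0% of those of the interferon-high cells. On day 5 a single cell of 72733 UMIs gave 45.7% of the interferon-high sum. The 15 monocyte and macrophage marker genes, none of them at 0 in any sum, totalled 2524, 4604 and 26437 CPM in the interferon-high cells and 5465, 9887 and 23912 in the others. Inside the gate, which 8 of these 15 genes also set, they totalled 2530, 2506 and 1801 CPM, against 4022, 2705 and 3879. Gated values are therefore also given for many of the genes, and a further fit left out every cell with 0.1% or more of macrophage gene UMIs. The further fit kept 36 of 65, 31 of 73 and 4 of 17 interferon-high cells on days 1, 3 and 5. That fit called 137 of 3122 genes (122 higher, 15 lower), and 35 of 37 tested genes of the list of other interferon-stimulated genes described below were higher in it. Lymphocyte markers were almost absent, with 7 or 8 of their 8 genes at 0 in the interferon-high sums. Of all barcodes of the pool, 28 also occurred in the blood and heart pool, 1 of them an interferon-high cell, and 0 in the CD45+ libraries described next.

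Interferon-high cells made up a larger share of heart neutrophils on day 1 than on the later days in this pool. They were 65 of 256 Ly6G-antibody-positive cells on day 1, or 25.4% (exact Clopper-Pearson 95% interval 20.2% to 31.2%). On day 3 they were 73 of 1003 (7.28%, 5.75% to 9.06%), and on day 5 they were 17 of 291 (5.84%, 3.44% to 9.19%). The day 1 interval did not overlap the others, and those of days 3 and 5 overlapped. The intervals cover counting error only, and with 1 pool of mice per day no test between days was possible. With each cell thinned to 1000 UMIs the shares were 29.6%, 7.44% and 6.27%, and inside the transcript gate 25.6%, 7.75% and 8.20%. The same rule marked 3.61%, 2.57% and 1.30% of the pool's cells with less Ly6G antibody.

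That order of days was not seen in 5 separate libraries of CD45+ heart leukocytes (steady state and days 1, 3, 5 and 7). Those libraries had another chemistry, a step before the sort that lowered neutrophil numbers, and no surface antibodies, so cells were taken by the transcript gate alone. Interferon-high cells were 10 of 347 on day 1 (2.88%, 1.39% to 5.24%), 16 of 167 on day 3 (9.58%, 5.58% to 15.1%) and 5 of 44 on day 5 (11.4%, 3.79% to 24.6%). By the same gate the CD11b+ pool gave 23% (18.3% to 28.3%), 7.66% (6.11% to 9.45%) and 7.17% (4.16% to 11.4%). The intervals of the experiments overlapped on days 3 and 5 but not on day 1. None was found among the 7 gated cells at steady state and the 29 on day 7, which by the limit of 3 counts allows shares of up to 42.9% and 10.3%, and the exact upper 95% limits are 41.0% and 11.9%.

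**Figure D2:**
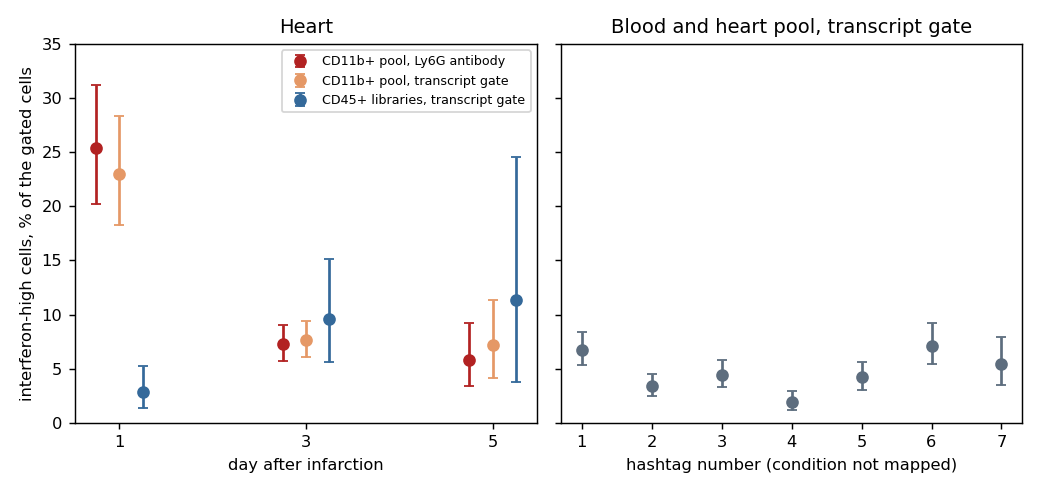
Share of interferon-high cells (vertical axis, percent of the neutrophils gated) with exact 95% intervals as bars. Left, days after infarction in the heart, by Ly6G antibody or transcript gate in the CD11b+ pool and by transcript gate in the CD45+ libraries, where day 1 is 25.4%, 23% and 2.88%. Right, the pool of blood and heart cells by hashtag (7), at 1.93% to 7.13%.

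Many interferon-stimulated genes besides the 12 rule genes were higher in these cells. Of 53 other interferon-stimulated genes, 49 could be tested and 46 were higher in the interferon-high cells, with 0 lower. Ifit3b, Ifi208, Ifit1bl1 and Ifi47 led, at log2 differences of 6.76, 5.30, 5.17 and 4.47. Inside the transcript gate 41 of 45 were higher. The test was edgeR's quasi-likelihood test on UMIs summed per day and class, with the day as block and Benjamini-Hochberg adjustment at 0.05. Rule genes were left out of the test and of the CPM totals from here on. Over all 6555 genes tested it called 365 (5.57%), 303 higher (4.62%) and 62 lower (0.946%), and 1339 had an unadjusted p under 0.05. Inside the gate it called 227 of 4909 (4.62%), 177 higher (3.61%) and 50 lower (1.02%). The call in both fits was shared by 168 higher genes (3.43% of the 4900 tested in both) and 12 lower (0.245%). The count rests on the single days: it was 385 without day 1, 82 without day 3 and 833 without day 5.

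The median log2 difference of the 49 genes was 2.59, against -0.05 over all genes tested. Only 43 of the 49 would have passed the filter on low counts by the other cells alone, so the count is a description. The list was chosen with earlier results of these data known. Without day 3 the count of higher genes was 30 of 49, without day 1 it was 49 of 51 and without day 5 it was 46 of 48. The genes that missed the threshold were Ms4a4c (log2 difference 1.11, adjusted p = 0.480), Lgals3bp (0.65, adjusted p = 0.272) and Ifi27l2a (0.96, adjusted p = 0.0855). Inside the gate Ifi27l2a passed, at 1.34 (adjusted p = 0.00152, edgeR).

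Ifit3b (ENSMUSG00000062488, chr19:34607970-34613401), a near copy of Ifit3 in the same cluster, showed the largest difference. It stood at 484, 577 and 387 CPM on days 1, 3 and 5 in the interferon-high cells and at 12.8, 4.32 and 2.98 in the others. Its log2 difference was 6.76 ± 0.37 (SE from the fit of 3 days), and 6.67 inside the gate. Within days 1, 3 and 5 the difference was 5.76, 7.21 and 7.05. Ifit3b passed the filter on low counts only through the interferon-high sums, as did Ifi208, Ifit1bl1, Ifi47 and Ifi206, so their differences are a description and no p is given. Isg20, an exonuclease that degrades RNA, was at 1273, 587 and 450 CPM against 144, 35.9 and 20.7, a difference of 4.15 ± 0.28 (adjusted p = 8.32e-06, edgeR). Inside the gate Isg20 was at 1261, 562 and 857 CPM against 176, 53.7 and 37.5. The classes did not overlap for either gene, and Isg20 was highest on day 1 in both classes. Slfn4, a Schlafen protein of myeloid cells, was at 2992, 1297 and 939 CPM against 587, 120 and 52.3. Inside the gate it was at 3002, 1464 and 2301 CPM against 702, 208 and 98.5, so that its day 5 level stood above that of day 3. Reads of near-identical genes such as Ifit3 and Ifit3b, or of the Ifi200, Schlafen and guanylate-binding families, may have been split between copies in the counting.

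Rtp4 (3.28), Oas3 (3.25), Slfn5 (3.48), Herc6 (4.28), Ifi47 (4.47) and the genes Ifi206 (4.30) and Ddx60 (3.88), which stood in none of the lists, completed the antiviral genes among the 15 largest differences of called genes with a mean of at least 50 CPM. Every one of the 15 was also called inside the gate, a count given as a description. Some of these genes passed the filter on low counts only through the interferon-high sums. Others were low in the gated other cells, at 4.69 CPM for Gbp2 on day 5. Ifitm3, which blocks the entry of viruses into cells, was among the more abundant ones, at 5455, 3959 and 2486 CPM against 1924, 1299 and 792 (log2 difference 1.88 ± 0.22, adjusted p = 3.64e-04, edgeR). Cd274, which encodes the checkpoint ligand PD-L1, was at 239, 329 and 171 CPM against 119, 122 and 59.9 (1.61 ± 0.23, adjusted p = 0.00147, edgeR). Inside the gate Cd274 was at 227, 360 and 386 CPM against 133, 194 and 98.5 (1.33 ± 0.27, adjusted p = 0.00295, edgeR).

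**Figure D3:**
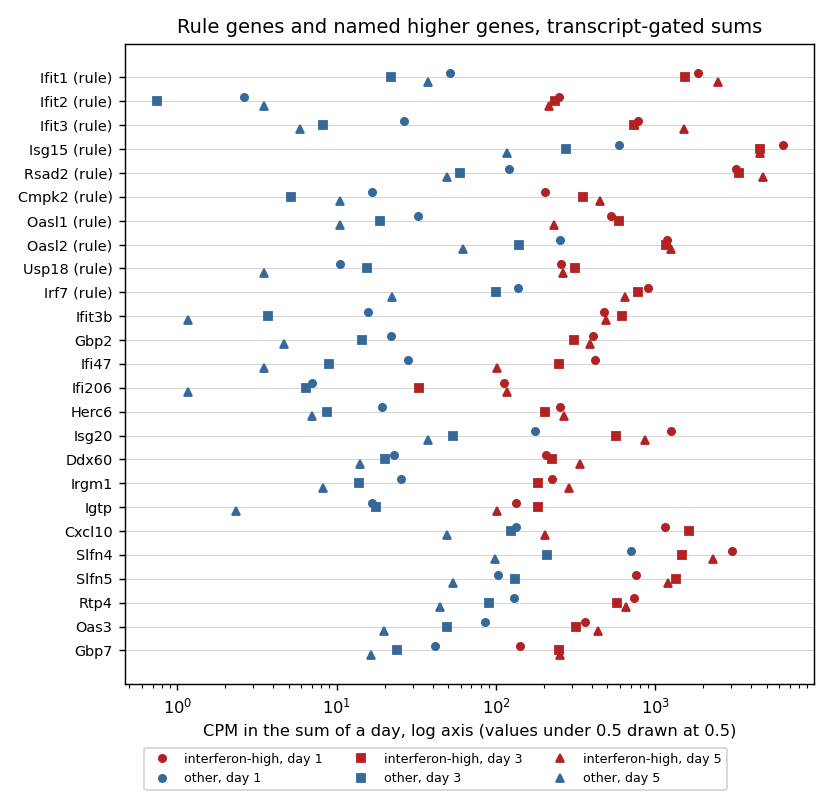
Levels of the rule genes (a description, since they chose the cells; Ifi44 and Mx1 left out) and of the 15 named higher genes in the transcript-gated sums, in CPM on a log axis, red for interferon-high and blue for other cells, with 1 symbol per day. Red and blue symbols do not overlap for any gene drawn, Ifit3b for example at 478, 619 and 487 CPM against 15.8, 3.71 and 1.17. The 15 were picked for large differences of the same direction on every day, so this separation is also a description.

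Guanylate-binding proteins and immunity-related GTPases, which attack the vacuoles of intracellular pathogens and respond strongly to interferon gamma, were listed with chemokines of the same response. Of 18 listed genes 11 could be tested, and all 11 were called higher, inside the gate too, with a median log2 difference of 3.73. Only 5 of the 11 would have passed the filter by the other cells alone, so this count and median are a description. Gbp2 (chr3:142620602-142638008) was at 404, 319 and 235 CPM on days 1, 3 and 5 against 17.8, 13.9 and 14.0, a log2 difference of 4.66 ± 0.28 (adjusted p = 8.32e-06, edgeR). Inside the gate its level was 405, 309 and 386 CPM against 21.9, 14.4 and 4.69. The differences of Irgm1 and Gbp7 were 3.87 and 3.20. Gbp5 (4.32), Igtp (3.87) and Gbp3 (3.73) passed the filter only through the interferon-high sums. The annotated spans of Igtp and Irgm2 overlap on chromosome 11, so their reads may not be told apart. The remaining 7 genes were too low to test, Iigp1 among them, with 3 UMIs in the interferon-high cells and 5 in the others.

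Cxcl10 (chr5:92346638-92348889), a chemokine that draws T cells through CXCR3, belonged to that group. It was at 1145, 1704 and 1078 CPM on days 1, 3 and 5 against 123, 105 and 97.8 (log2 difference 3.86 ± 0.26, adjusted p = 8.32e-06, edgeR). Its day 5 level was lower inside the gate, where Cxcl10 was at 1146, 1616 and 202 CPM against 133, 124 and 49.3. The gated difference was 3.34 ± 0.32 (adjusted p = 1.92e-07, edgeR). Cxcl9, its relative, had 1 UMI in the interferon-high cells.

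In the signalling chain the transcription factors Stat2 and Irf9 were higher, and no receptor gene was called. Stat2 was at 114, 106 and 108 CPM against 15.7, 16.6 and 15.4, and its log2 difference was 3.05 ± 0.28 (adjusted p = 5.98e-05, edgeR). Irf9 was at 194, 121 and 133 CPM against 54.1, 42.0 and 30.8 (2.10 ± 0.26). Inside the gate Stat2 was at 112, 65.5 and 101 CPM and Irf9 at 190, 146 and 218. Both were among the 3 genes called of the 14 tested (18 listed), and both were called inside the gate too. Ifnar1 was at 98.6, 118 and 114 CPM against 100, 109 and 122, so that its levels overlapped between the classes (log2 difference 0.30 ± 0.25, adjusted p = 0.532, edgeR). Ifnar2 (-0.17 ± 0.25), Ifngr1 (-0.02 ± 0.26) and Ifngr2 (-0.14 ± 0.26) were not called either, which does not show that they were equal. The ligands Ifnb1, Ifna4, Ifng and Ifnl3 had 0 UMIs in the interferon-high cells.

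Sensors of foreign or misplaced nucleic acid were higher in part. Of 12 tested genes 7 were higher: Ifih1, Ddx58 and Dhx58, which detect double-stranded RNA, Zbp1, which detects Z-form nucleic acid, Adar, Samhd1 and Myd88. The first 4 also stand in the list of interferon-stimulated genes. Ifih1, which encodes MDA5, was at 137, 161 and 133 CPM against 17.8, 25.5 and 18.8 (log2 difference 3.07 ± 0.27, adjusted p = 3.66e-05, edgeR). Tmem173, which encodes the DNA sensing adaptor STING, was not called (-0.79 ± 0.54), nor was Tlr7 (0.22 ± 0.46). Inside the gate 6 of 9 were higher, without Myd88 (0.82, adjusted p = 0.0933, edgeR). Without day 3 the count was 3 of 12.

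Most listed genes of MHC class I and antigen processing were higher, at smaller sizes. Of 17 genes, all tested, 12 were higher, 0 lower and 5 not called, with a median log2 difference of 1.20, and inside the gate 14 were higher. Tap1, a subunit of the peptide transporter, was at 92.7, 232 and 171 CPM on days 1, 3 and 5 against 34.2, 40.9 and 44.3 (2.30 ± 0.27, adjusted p = 3.21e-04, edgeR). The immunoproteasome subunits Psmb9 and Psmb8 differed by 1.82 and 1.48, and Nlrc5, a transactivator of these genes, by 2.11. B2m, the light chain of every class I molecule, was at 2424, 2525 and 2068 CPM against 1313, 1511 and 1611 (0.96 ± 0.25, adjusted p = 0.0454, edgeR). The count was 3 of 17 without day 3, 5 of 17 without the day as block and 7 of 17 when sums were scaled by total counts alone.

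Neutrophil identity genes were higher in the fit of all cells, and mostly not inside the gate. Of 15 genes 10 were higher over all cells, at a median log2 difference of 1.07, and 3 inside the gate, at a median of 0.65. Cxcr2 and Il1r2 were among the 3. All 9 neutrophil genes of the gate, Cxcr2, Il1r2 and S100a8 included, stand among the 15. Both classes were thus selected on these genes, and their gated differences and p-values are a description. Cxcr2, the receptor of neutrophil-attracting chemokines, was inside the gate at 865, 515 and 588 CPM against 400, 294 and 313 (gated log2 difference 1.15 ± 0.25, adjusted p = 0.00599, edgeR). Il1r2, the decoy receptor of interleukin-1, was at 3946, 2139 and 2738 CPM inside the gate against 2089, 1741 and 1554 (0.87 ± 0.24, adjusted p = 0.0390, edgeR). Both were higher in the interferon-high cells on each day. For S100a8 the log2 difference was 0.83 over all cells (adjusted p = 0.0434) and 0.17 inside the gate (adjusted p = 0.794, edgeR). Scaled by total counts alone, 3 of the 15 were called over all cells. The calls over all cells were lost without day 3, and the gated calls without day 1 and without day 5.

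Few granule, tissue-type and stress genes were called. Among all genes tested, 4.62% were called higher over all cells and 3.61% inside the gate, where 1.02% were lower. Single calls in these lists are therefore a description. Among granule genes, Mmp8 was higher over all cells (1.19, adjusted p = 0.0439), while inside the gate Lyz2, the lysozyme gene, fell by 1.34 on the log2 scale and Chil3 by 0.99 (adjusted p = 0.00464 and 0.0314, edgeR). Both are also abundant in macrophages. Without day 5 the gated fit called 0 of 9 granule genes lower, so these 2 calls rest on that day. Siglecf, which marks a state of neutrophils in injured tissue, was at 24.2, 143 and 202 CPM inside the gate against 19.3, 185 and 215, a difference of -0.00 ± 0.33 (adjusted p = 0.998, edgeR). None of 12 immediate early and heat shock genes was called by edgeR in either fit, though 6 had an unadjusted p under 0.05 over all cells and 4 inside the gate, and DESeq2 called 2. Of 19 cytokines tested, Cxcl10, Csf1, Ccl3 and Il1rn were higher over all cells and Cxcl10 alone inside the gate, where 18 were tested. Over all cells the count was 1 of 19 without day 3. Il1b, an inflammatory cytokine that neutrophils make in quantity, was at 29289, 15908 and 5829 CPM against 16382, 10888 and 5753 (0.76 ± 0.26, adjusted p = 0.122, edgeR). Inside the gate Il1b was at 29508, 18544 and 11958 CPM against 19213, 18422 and 14807 (0.30 ± 0.25, adjusted p = 0.633, edgeR). Among 16 cell death genes tested Zbp1, Casp1, Casp4 and Fas were higher over all cells, and Zbp1, Casp1 and Casp8 inside the gate. Over all cells 1 of the 16 was called without day 3.

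**Figure D4:**
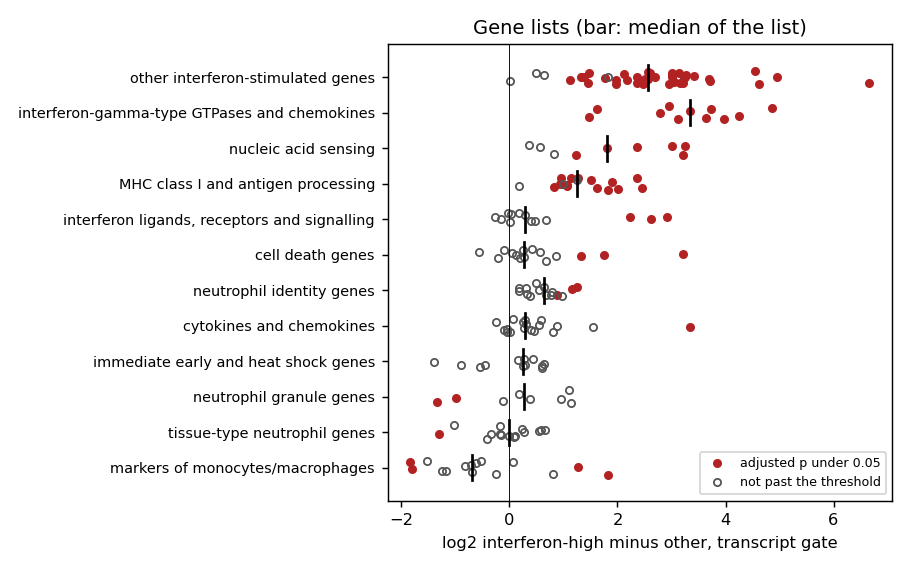
Fitted log2 differences (interferon-high minus other, transcript gate) of the genes of 12 lists, 1 point per gene, filled where the adjusted p was under 0.05, with vertical jitter that carries no value and a bar at the median of the list. The interferon lists lie right of 0, with medians of 2.57 and 3.34, and the tissue-type list is centred at -0.00.

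Among the genes that were lower in the interferon-high cells were several known from monocytes and macrophages, such as Arg1, Fn1 and F13a1. Those with the largest differences included Areg, Arg1, Fn1, Gdf15, Nrp2, Emp1, Stmn1, Crip1, F13a1, Pf4, Dusp3, Cd83, Ahnak and Ptbp1. Of these 14 genes, 5 were called inside the gate (Arg1, Fn1, Crip1, F13a1 and Dusp3), 4 were too low to test (Areg, Gdf15, Nrp2 and Stmn1) and 5 were not called. Each of the called genes lost that call in the gated fits without day 1 and without day 5, Dusp3 also without day 3. The gated fit called 9 lower genes without day 1 and 0 without day 5, in place of 50. Arg1 (chr10:24915221-24927484), the arginase of wound macrophages, was at 50.8, 97.0 and 25.4 CPM against 948, 505 and 434 (log2 difference -3.07 ± 0.36, adjusted p = 3.21e-04, edgeR). Inside the gate it was at 51.4, 92.2 and 16.8 CPM against 438, 175 and 144 (-1.79 ± 0.37, adjusted p = 0.00295, edgeR). Fn1, which encodes fibronectin, was at 45.4, 155 and 118 CPM inside the gate against 513, 392 and 255 (-1.83 ± 0.35, adjusted p = 0.00155, edgeR). Both lost the call when cells with 0.1% or more of macrophage gene UMIs were left out, at -0.64 (adjusted p = 0.780) and -0.44 (adjusted p = 0.894, edgeR). That fit kept 36, 31 and 4 interferon-high cells on days 1, 3 and 5.

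**Figure D5:**
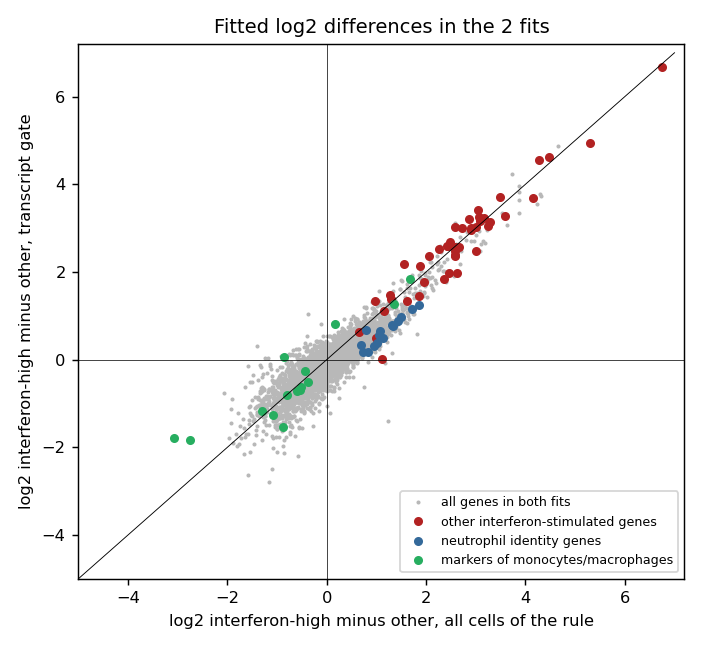
Fitted log2 differences (interferon-high minus other) over all cells of the rule (horizontal) and inside the transcript gate (vertical), 1 point per gene tested in both fits, with the line of equality. Other interferon-stimulated genes (red) lie along the line, with medians of 2.59 and 2.57. Neutrophil identity genes (blue), 9 of which set the gate, lie below the line, with medians of 1.07 and 0.65.

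A pair of genes listed as monocyte markers was higher in the interferon-high cells, while the antibodies to their products had medians close together. Of the 15 markers, Ly6c2 and Fcgr1 were higher and Fn1 and Arg1 lower, in both fits. Ly6c2, whose product carries the Ly6C antigen, was at 1082, 393 and 134 CPM inside the gate on days 1, 3 and 5 against 326, 112 and 70.4 (1.83 ± 0.28, adjusted p = 1.19e-04, edgeR). The Ly6C antibody had median UMIs of 154, 125 and 126 in the gated interferon-high cells and 147, 121 and 111 in the gated others. Fcgr1, which encodes the antibody receptor CD64, was at 284, 184 and 33.6 CPM against 122, 70.8 and 68.0, higher on days 1 and 3 only (1.26 ± 0.32, adjusted p = 0.0199, edgeR). The CD64 antibody had medians of 16, 16 and 21 UMIs against 16, 14 and 18. Ly6G antibody medians were 394, 339 and 405 against 371, 336 and 327. The middle range of cells overlapped between classes for each of these antibodies, and 3 pairs of medians cannot give a two-sided exact permutation p below 0.25.

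Beyond the lists, 98 further genes were called in both fits, in either direction. Genes named Gm or Rik and those of haemoglobins, ribosomal proteins and mitochondria were left out of that count. Over all 4900 genes tested in both fits, 168 (3.43%) were called higher and 12 (0.245%) lower. Among the higher ones were genes of cytokines and metabolism, named here after their values were seen. Il15, a cytokine that sustains natural killer and T cells, was at 41.8, 61.5 and 50.7 CPM against 23.5, 16.0 and 14.0 (1.86 ± 0.35, adjusted p = 0.00910, edgeR), and at 84.0 against 19.9 on day 5 inside the gate. Acod1, whose enzyme makes itaconate, was at 3324, 2880 and 1725 CPM against 1684, 1206 and 513 (1.62 ± 0.23, adjusted p = 0.00119, edgeR). Inside the gate Acod1 was at 3247, 3365 and 4350 CPM against 2007, 2355 and 1675 (1.05 ± 0.24, adjusted p = 0.00856, edgeR). Nampt (1.52), Lgals9 (1.72), Il18 (1.99) and the Fc receptor Fcgr4 (1.56) were higher as well. Mt1, a metallothionein, was lower at 47.8, 142 and 596 CPM against 513, 432 and 920 (-1.47 ± 0.37, adjusted p = 0.0434, edgeR). Inside the gate Mt1 was at 48.4, 134 and 33.6 CPM against 313, 150 and 338 (-1.36 ± 0.39, adjusted p = 0.0468, edgeR). Its gated levels were close together on day 3, and the gated interferon-high sum of day 5 held only 60528 UMIs. Without day 5 the gated fit called 0 lower genes, so the gated call of Mt1 rests on that day.

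The ISRE-type motif was frequent before the genes that were higher. It was found in 51.2% of the other interferon-stimulated genes (21 of 41 with a RefSeq entry) and in 84.6% of the GTPase and chemokine list (11 of 13). Of the genes called higher in both fits 34.1% had it (46 of 135). Outside the rule genes and the list of other interferon-stimulated genes it was 28.6% (30 of 105). Called genes of the remaining lists, such as the GTPase and chemokine list, were not left out of these 105. The share was 4.58% among all genes tested (240 of 5241). None of 8 genes called lower, 13 neutrophil identity genes or 13 granule genes had it. At a share of 4.58%, sets this small may hold no match, so no contrast is drawn from them. A match is a description of sequence and no evidence of binding.

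Many of these genes were also higher in interferon-high neutrophils of a separate pool of blood and heart CD11b+ cells from control, sham-operated and infarcted mice of 8 to 10 weeks. Which condition each of its 7 hashtags stands for is not mapped here, so values are given per hashtag and no test is made. The Ly6G antibody reached only 148 UMIs there, so neutrophils were taken by the transcript gate. Interferon-high cells were found under every hashtag, from 22 of 1137 (1.93%, hashtag 4) to 53 of 743 (7.13%, hashtag 6). Of 2587 genes with a mean of at least 50 CPM, 230 (8.89%) were higher and 143 (5.53%) lower under all 7 hashtags. Of the 168 genes called higher in both fits of the heart pool, 139 could be read and 117 were higher under all 7. Of the other interferon-stimulated genes 33 of 37 were. Of the 12 called lower, 6 could be read and 1 was lower under all 7.

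Gbp2 was at 245 to 463 CPM in the interferon-high cells of that pool and 24.4 to 53.1 in the others, with no overlap. Cxcl10 was higher under 6 hashtags. Cxcr2 was higher under all 7, by a median of 0.42 on the log2 scale. Since Cxcr2 is a gene of the transcript gate that chose both classes there, this is a description. Ly6c2 was higher under 3 hashtags and lower under 4, and so was Fcgr1. Siglecf was higher under 2 and lower under 5.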

How the data were processed

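The values deposited by the authors are raw UMI counts, per barcode, of genes and of antibodies, and carry no normalization. Cell Ranger (3.0.2) made them per the file headers, and the build is mm10 (GRCm38) per the labels. Gene positions are those of the GENCODE annotation of that build. The members, the gene lists and the tests were chosen with earlier results of these data known.

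Barcodes needed at least 200 genes, at most 10% mitochondrial UMIs, and a top hashtag of at least 10 UMIs and 3 times the second. UMIs were summed per day and class (6 sums, 159282 to 8567012 UMIs), with the 12 rule genes left out of totals and tests. edgeR 4.0.16 (R 4.3.3) was run with filterByExpr, TMM factors (0.651 to 1.21), and glmQLFTest with the day as block, since both classes of a day come from the same mice. The biological coefficient of variation was 22.7%. Since mice were pooled, p-values measure the spread between 3 days. Each SE is the log2 difference divided by the root of the F statistic of its fit. The dispersion behind it is moderated across genes, so it is not the standard error of 3 daily values. The fit was tested on simulated data.

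Named genes were the 15 highest and the 15 lowest called log2 differences with the same direction on every day and a mean of at least 50 CPM, beside the lists, leaving out the rule genes, genes named Gm or Rik, and those of haemoglobins, ribosomal proteins and mitochondria. Alternatives were DESeq2 1.42.0, other scaling, thresholds, gates, thinning to 1000 UMIs and leaving out each day. The gate with thinning and the gated fits without a day were chosen after seeing the data. The limits of a count of 0 take 3 counts, and intervals are 95%. Promoters were searched in RefSeq windows (GRCm38.p6). Usp18 and Mx1 were not among the entries used here. A few genes that the rule or the lists name are not reported here.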

Additional observations from a re-analysis of the deposited data

How the results depend on the processing

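All 15 named higher genes kept their direction in every alternative that tested them, and the 53-gene interferon list had 22 to 51 higher genes. Without the replicate block (the day as a pairing of the sums) the fit called 75 genes in place of 365 (71 higher, 4 lower), with 22 of the interferon list and 5 of the class I list, and Isg20, Slfn4, Rtp4 and Oas3 lost the call (adjusted p = 0.154, 0.328, 0.0609 and 0.109, edgeR). Leaving out 1 day gave 82 (without day 3) to 833 genes (without day 5), 76 to 503 higher and 6 to 330 lower. Total counts alone called 194 genes (142 higher, 52 lower) and moved the median of all genes from -0.05 to -0.33 on the log2 scale. No filter called 576 (319, 257). A 1% threshold called 587 (304, 283) and a 0.3% threshold 505 (430, 75). Ly6G limits of 400 and 100 UMIs called 178 (112, 66) and 827 (714, 113). The transcript gate called 227 (177, 50). The gated fit called 156 (147, 9) without day 1, 390 (184, 206) without day 3 and 101 (101, 0) without day 5. Leaving out macrophage-marker cells called 137 (122, 15), thinning 85 (76, 9), cells chosen on part of the UMIs 201 (171, 30), gate with thinning 91 (79, 12) and DESeq2 358 (318, 40). Fewer genes were tested in the thinned and gated fits, and the other causes were not tested. Signs reversed for Pf4 (0.14) without macrophage-marker cells and for Emp1 (0.051) in the gated fit without day 1. The shares on days 1, 3 and 5 were 14.1%, 3.99% and 1.72% at 1% and 35.2%, 11.1% and 7.56% at 0.3%. With the Ly6G limit at 100 UMIs they were 16.2%, 5.18% and 2.51%, and on day 5 at 400 UMIs 9.30%. Depth limits day 5 most, with 17 cells and 60528 gated UMIs.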
